A study of Homo sapiens with 95 samples.

Results

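The genes described here are 10 integrin subunits that form receptors for the extracellular matrix, taken by name (ITGA1, ITGA2, ITGA3, ITGA5, ITGAV, ITGB1, ITGB3, ITGB5, ITGB6 and ITGB8) from the 27978 genes of the count table. All 10 were listed. The RNA came from AALE cells, an immortalized human bronchial epithelial line, in 95 libraries of sparse full length sequencing (SFL), a highly multiplexed method based on ribosomal RNA depletion. The study was made to evaluate SFL beside other expression platforms. It crossed 8 lines, perturbed or control, with 4 treatments, which gave 32 groups. Of these groups 31 held 3 samples, and FGFR1 cells with cigarette smoke condensate held 2. FAT1 and CDKN2A, both tumour suppressors, were knocked out with CRISPR guides carried by a Cas9-EGFP plasmid, and their GFP control cells received that plasmid without a guide. NRF2 (gene NFE2L2), FGFR1, NRG1 and PIK3CA were each overexpressed, and their controls carried HcRed, a red fluorescent protein, as the vector insert. Each line was exposed to cigarette smoke condensate (CSC, 24 μg/ml), benzo[a]pyrene (BaP, 173 μM), the nitrosamine NNK (490 μM) or the solvent DMSO. Cells were grown in 24-well plates. The exposure time and whether a line was a clone or a pool are not given in the sources used here, so a difference between lines rests on a single line of each kind. The study describes the replicates as biological, but how they were kept apart (wells, passages or days) is not given in the sources used here. The p-values measure only the spread between these samples.

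Integrins are pairs of an α and a β chain that span the plasma membrane, bind matrix proteins outside the cell and couple to talin, kindlin and actin inside it. The pairing sets the ligand. ITGA1 and ITGA2 join ITGB1 in the collagen receptors, and α1β1 and α2β1 differ in the collagens they prefer. ITGA3 with ITGB1 binds laminins of the epithelial basement membrane, and ITGA5 with ITGB1 is the classical fibronectin receptor. ITGAV pairs with ITGB1, ITGB3, ITGB5, ITGB6 or ITGB8 and reads the RGD sequence of vitronectin, fibronectin and latent TGF-β. In airway epithelium αvβ6 and αvβ8 are known for activating latent TGF-β, αvβ6 by cell tension and αvβ8 without it. Transcript counts say nothing of how much of each pair reached the cell surface, and in bulk RNA fewer cells of a type and less RNA per cell cannot be told apart.

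The libraries held 287446 to 2116383 counted reads, with a median of 934235. Depth moved with treatment. The median was 1051107 reads with DMSO, 825587 with CSC, 836087 with BaP and 753702 with NNK, and 9 libraries, none of them DMSO, had under 500000. The perturbed genes followed the labels: the ratio of mean CPM (a gene's counts divided by the library size, on a common scale) to the matched control was 0.280 for FAT1, 0.463 for CDKN2A, 6.75 for NFE2L2, 22.7 for FGFR1, 301 for NRG1 and 6.27 for PIK3CA, and in each case the 2 sets of samples did not overlap. The basal epithelial markers KRT5, KRT14, KRT17, TP63, EPCAM and CDH1 were detected in all 95 libraries, with KRT5 at 1605 to 6141 CPM and KRT14 at 14.0 to 748 CPM. The median of their summed level was 5189 CPM with DMSO, 4534 with CSC, 4916 with BaP and 5625 with NNK. Over the lines it ran from 4329 CPM in FAT1 to 8027 in NRF2, with 5500 in GFP and 6969 in HcRed. Most markers of other cells were near 0: CD3E had no read in 95 libraries, CDH5 in 94, SCGB1A1 in 93, MUC5AC in 92 and PTPRC in 90, while COL1A1 (median 25.2 CPM) and CD68 (13.8 CPM) were present. Lower but often detected were the ciliated marker DNAH5, the fibroblast marker DCN and the secretory marker MUC5B (medians 1.76, 1.19 and 0.944 CPM). They had no read in 24, 39 and 42 libraries. The summed level of the fibroblast list, mostly COL1A1, had a median of 16.8 CPM with DMSO, 34.1 with CSC, 27.3 with BaP and 31.7 with NNK, and over the lines from 14.5 CPM in PIK3CA to 42.2 in CDKN2A. That of the leukocyte list, mostly CD68, was 11.9, 23.2, 13.7 and 11.7 CPM with the 4 treatments, and over the lines from 8.49 CPM in GFP to 22.0 in PIK3CA. The part of these marker shifts in the results was not tested.

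The 10 genes lie on 7 chromosomes and are all protein coding (GRCh37, the build of the deposited counts). Of the α chains, ITGA1 is at chr5:52083750-52255039 on the plus strand and ITGA2 lies just beyond it at chr5:52285170-52390609 on the plus strand. ITGA3 is at chr17:48133332-48167845 on the plus strand, ITGA5 at chr12:54789045-54813050 on the minus strand and ITGAV at chr2:187454737-187545628 on the plus strand. Of the β chains, ITGB1 is at chr10:33176201-33294720 on the minus strand, ITGB3 at chr17:45331193-45391109 on the plus strand, ITGB5 at chr3:124480795-124620265 on the minus strand, ITGB6 at chr2:160956178-161056824 on the minus strand and ITGB8 at chr7:20370325-20455377 on the plus strand. PELO, a gene for a ribosome rescue factor, sits inside the ITGA1 locus on the same strand and shares 499 exon bases with it, so reads of that stretch could not be assigned to a single gene. The GC content of the annotated exons differs widely among the 10 and bears on the chemical comparisons. It is lowest in ITGAV (36.7%), ITGA1 (37.3%), ITGB8 (39.1%), ITGA2 (40.2%), ITGB6 (41.1%) and ITGB1 (41.8%). The other 4 are GC-richer, at 49.2% in ITGB3, 54.0% in ITGB5, 55.5% in ITGA5 and 57.4% in ITGA3.

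The promoter windows of 3 members are printed to show how unlike the upstream sequence of these subunits is: ITGB8, a member that was lower with every chemical, ITGA5, a member that was higher with every chemical, and ITGB6, a partner of ITGAV. Each window runs from 250 bases before to 50 bases after the RefSeq gene start (GRCh38.p14, strand of the gene), and capitals mark matches on either strand to GCGTG (the core of the aryl hydrocarbon receptor element), TGACNNNGC (the antioxidant response element bound by NRF2), TGANTCA (AP-1) or GGGCGG (the GC box bound by SP1). Adjacent matches can run together, as GGGCGG and GCGTG do near the 5′ end of the ITGB8 window.
ITGB8 (chr7:20330650-20330949, plus strand): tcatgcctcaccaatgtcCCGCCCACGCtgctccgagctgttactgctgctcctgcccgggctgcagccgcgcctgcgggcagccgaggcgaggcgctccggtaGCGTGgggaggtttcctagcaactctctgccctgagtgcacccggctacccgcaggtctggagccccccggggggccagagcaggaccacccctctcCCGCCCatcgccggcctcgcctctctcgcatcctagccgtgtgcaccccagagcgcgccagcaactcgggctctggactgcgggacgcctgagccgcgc
ITGA5 (chr12:54419217-54419516, minus strand): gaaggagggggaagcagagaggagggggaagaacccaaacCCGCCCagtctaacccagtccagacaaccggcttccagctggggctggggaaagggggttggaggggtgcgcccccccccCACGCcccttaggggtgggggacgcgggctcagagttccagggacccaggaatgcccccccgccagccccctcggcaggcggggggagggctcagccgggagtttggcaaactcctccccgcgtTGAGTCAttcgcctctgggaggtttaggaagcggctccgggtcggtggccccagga
ITGB6 (chr2:160200223-160200522, minus strand): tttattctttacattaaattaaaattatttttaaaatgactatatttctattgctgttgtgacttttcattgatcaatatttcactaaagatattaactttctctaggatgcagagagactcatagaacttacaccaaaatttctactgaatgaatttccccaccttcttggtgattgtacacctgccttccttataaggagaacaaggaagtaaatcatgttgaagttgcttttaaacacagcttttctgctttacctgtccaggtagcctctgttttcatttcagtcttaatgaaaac
The ITGB8 window is 71.7% GC and the ITGA5 window 69.3%, against a median of 58.3% over 27305 genes, whereas the ITGB6 window is 31.7% GC and holds none of the 4 motifs. In ITGB8, GCGTG starts at positions -227 and -146 from the start site and GGGCGG at -232 and -49. In ITGA5, GGGCGG starts at -210, GCGTG at -130 and TGANTCA at -6. A window was at hand for 8 of the 10 members (not for ITGA3 or ITGB3). GCGTG was in 4 of these 8 and in 36.3% of all windows, TGACNNNGC in 3 and 13.6%, TGANTCA in 1 and 7.76%, and GGGCGG in 5 and 44.6%. A match is only a run of letters and was not tested for binding.

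Levels per length put ITGB1 and ITGA3 far above the rest. Expressed as CPM per kilobase of the representative (MANE) transcript over the 95 libraries, ITGB1, the shared β chain, had 158 ± 33.0 (mean ± SD, n = 95) and ITGA3, the laminin receptor chain, 146 ± 51.3. ITGB1 was above ITGA3 in 65 of 95 libraries, and the order of this pair depended on the length used: per kilobase of all annotated exons, ITGA3 had 72.6 and ITGB1 40.4. ITGAV followed at 30.2 ± 7.35 and ITGB5 at 29.4 ± 8.20, with ITGAV the higher in 50 of 95 libraries, so these neighbours did not separate. ITGA5 had 22.2 ± 7.35, ITGA2 17.2 ± 6.28 and ITGB8 13.3 ± 5.52. Each neighbouring pair of these overlapped, with ITGA5 above ITGA2 in 68 libraries and ITGA2 above ITGB8 in 61. ITGB6 had 8.04 ± 2.68 and was below ITGB8 in 73 libraries, and ITGA1, at 2.53 ± 0.993, was below ITGB6 in 93. The order of ITGAV, ITGB5, ITGA5 and ITGA2 also depended on the length used. Per kilobase of all annotated exons, ITGB5 (20.02), ITGA2 (17.06) and ITGA5 (12.76) lay above ITGAV (11.01).

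ITGB3, a β chain best known from platelets and endothelium, was barely detected. Its level was 0.328 ± 0.358 CPM per kilobase, it had no read in 27 of 95 libraries and never more than 11 reads. With a count of 0, a library of the median depth still allows up to 3 reads. ITGB3 therefore fell below the filter on mean counts (above 1) in 5 of the 16 line and chemical comparisons, and the differences given for it elsewhere rest on a handful of reads.

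**Figure D1:**
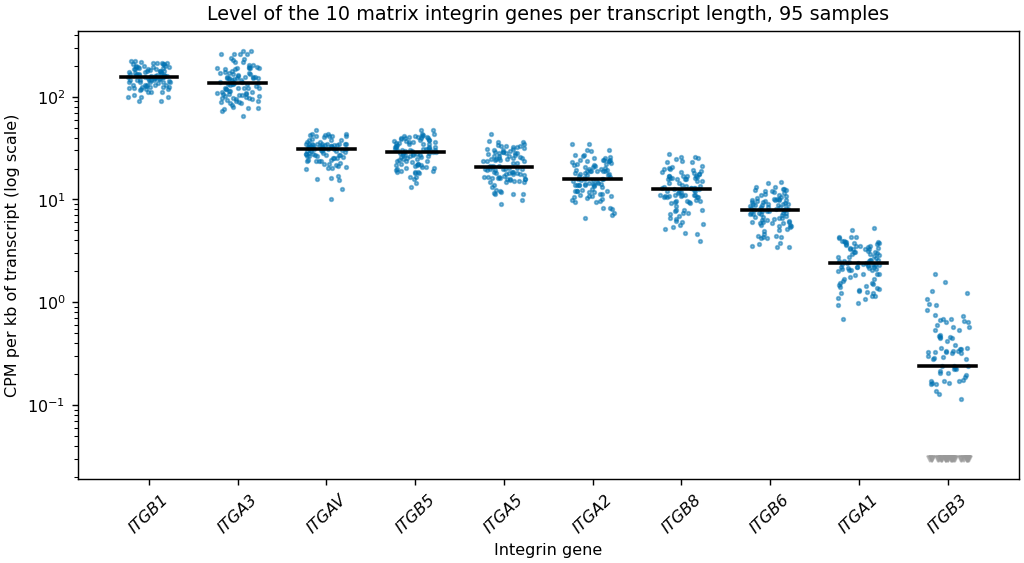
CPM per kilobase of the representative transcript on a log axis for each of the 10 integrin subunits, 1 point per library (n = 95), ordered by the mean, with bars at the median over all libraries and grey triangles for the 27 ITGB3 libraries at 0, which a log axis cannot show. ITGB1 (mean 157.6) and ITGA3 (145.6) lie above all others, and ITGB3 (0.328) lies lowest.

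The 8 lines together took a larger share of the spread of these genes than the 4 treatments did. A factor with more levels can take a larger share for that reason alone, and the shares were not adjusted for it. In a division of the sum of squares of log2 CPM over the 95 libraries, genotype took the larger share in all 10 genes, from 39.7% in ITGB3 and 50.4% in ITGB6 to 74.2% in ITGA3. The share of treatment was highest in ITGB8 (38.3%), ITGB1 (33.1%) and ITGA5 (30.7%) and lowest in ITGB3 (1.92%). Spread within groups was smallest in ITGA3 (3.46%) and ITGB8 (5.27%). It was 23.7% in ITGB6, 18.2% in ITGA1 and 46.0% in ITGB3, the 3 genes with the fewest reads, so a small difference in them is the hardest to see.

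**Figure D2:**
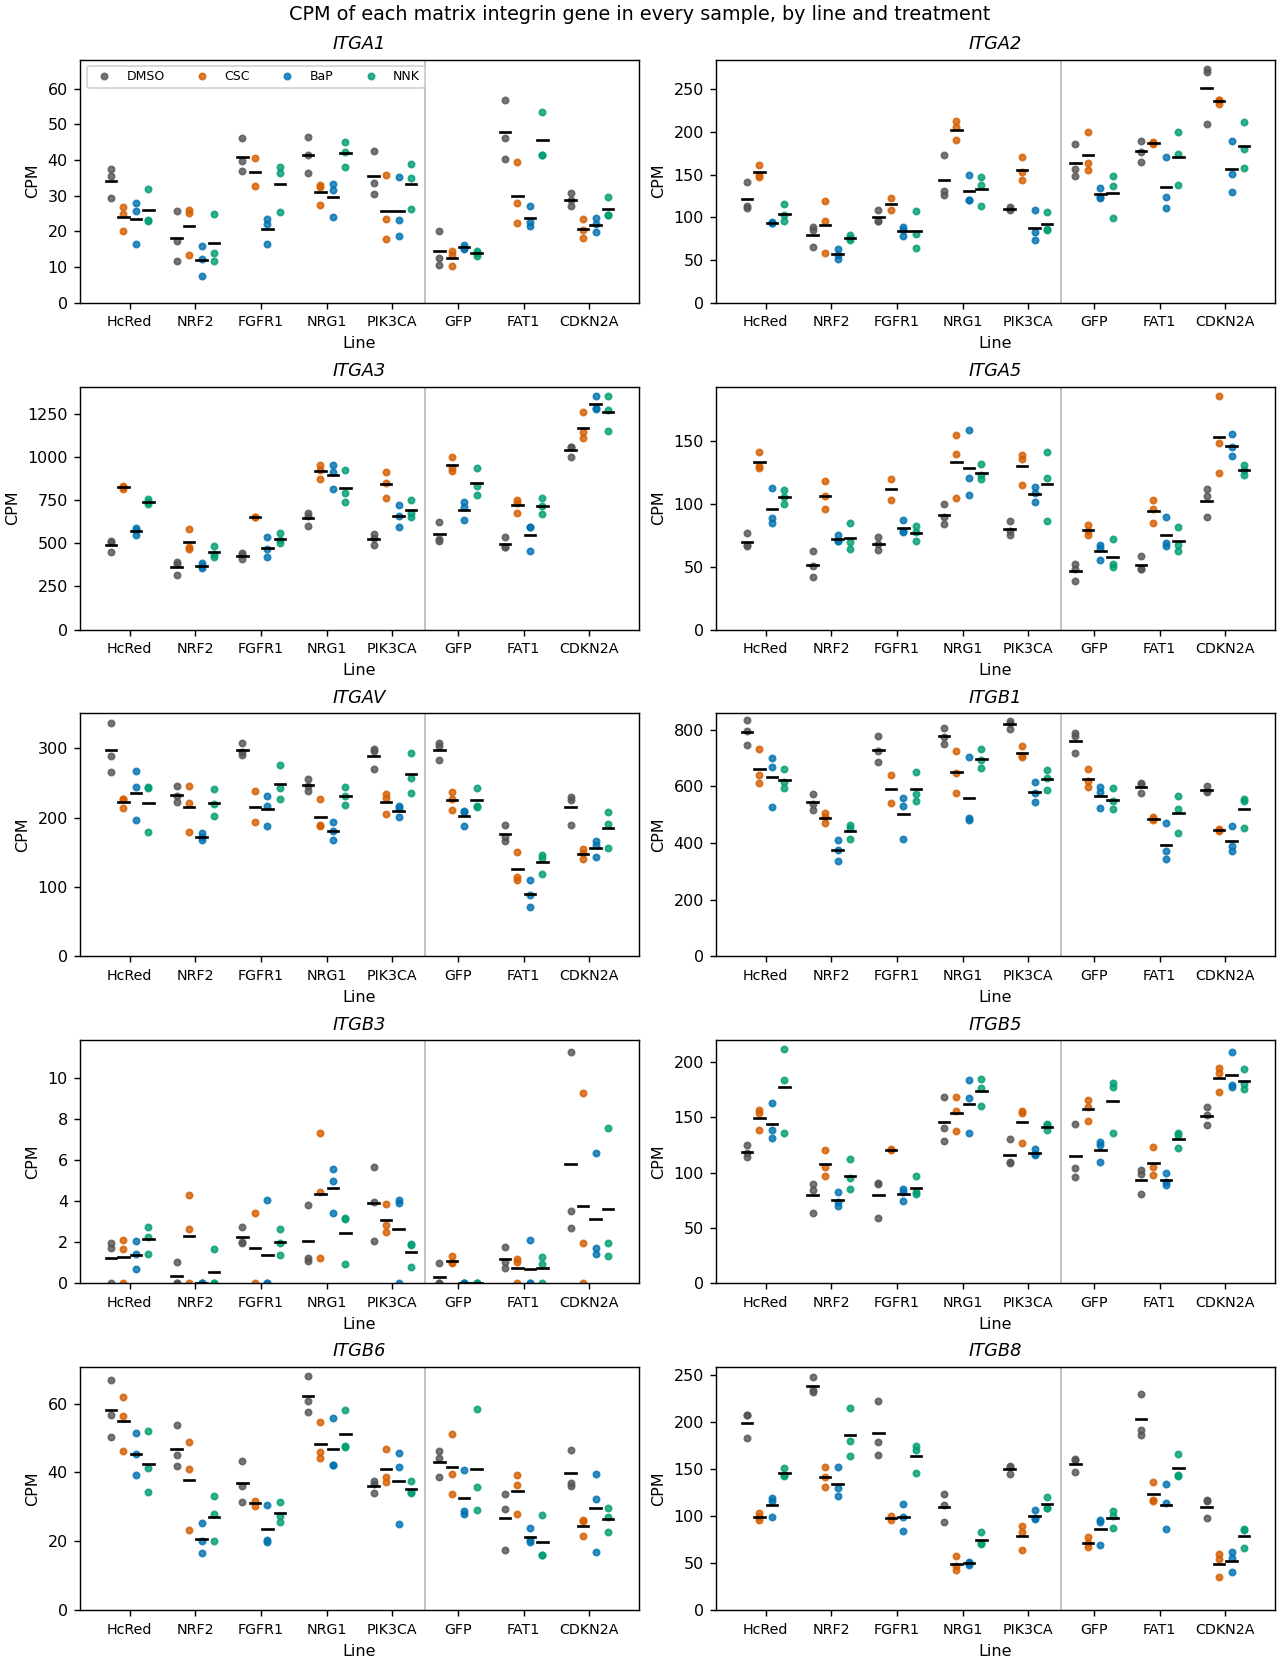
CPM of each member in every library on a linear axis from 0, in 1 panel per gene, by line, with the treatment shown by colour, a bar at the mean of each group and 3 samples per group (2 for FGFR1 with CSC). ITGA3 is highest in the CDKN2A line, ITGA1 is low in GFP cells beside FAT1 cells, and the mean of ITGB8 with DMSO lies above that with each chemical within every line.

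The overexpression lines were each compared with HcRed cells, and in NRF2 cells most matrix integrins were lower. Relative to HcRed with DMSO, 6 of 9 tested members fell and none rose in limma-voom (adjusted p under 0.05), where 7.16% of all tested genes were called. Without NRF2 replicate 3 the count was 3. The collagen receptor chain ITGA2 stood at 64.9, 84.9 and 88.3 CPM in the 3 NRF2 samples and at 111, 113 and 142 CPM in the 3 HcRed samples. The groups did not overlap, and ITGA2 fell by 0.62 on the log2 scale (SE 0.14, limma-voom adjusted p = 0.00160). Its partner ITGB1 was at 518, 539 and 573 CPM against 747, 793 and 832 CPM. All NRF2 samples were again below all controls (log2 difference -0.56 ± 0.06, limma-voom adjusted p = 9.13e-11). ITGA1, the other collagen receptor chain, was at 11.6, 17.4 and 25.7 CPM against 29.3, 35.4 and 37.4 CPM (-0.93 ± 0.27, adjusted p = 0.0202 in limma-voom). That call was lost without HcRed replicate 3 or NRF2 replicate 1 or 3. ITGA3 fell by 0.44, ITGB5 by 0.58 and ITGAV by 0.33 on the log2 scale, and the call of ITGAV was lost without HcRed replicate 2 or NRF2 replicate 1 or 3 and that of ITGB5 without NRF2 replicate 3.

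ITGB8 went the other way in NRF2 cells. With DMSO it was at 231, 234 and 247 CPM against 183, 207 and 208 CPM, without overlap, but the difference missed the threshold (0.26 ± 0.10, limma-voom adjusted p = 0.0886). Over all 4 treatments, with treatment in the model and 12 samples a line, ITGB8 rose by 0.33 ± 0.06 (log2, limma-voom adjusted p = 1.48e-05). The other 8 tested members fell. ITGA1 (-0.70), ITGB5 (-0.69), ITGA2 (-0.67), ITGA3 (-0.63), ITGB6 (-0.62) and ITGB1 (-0.57) had the larger falls, and ITGA5 (-0.42) and ITGAV (-0.24) the smaller. The call of ITGAV was lost without the samples numbered replicate 2 (adjusted p = 0.122, limma-voom). Of all tested genes 21.6% were called (10.4% higher and 11.2% lower), and the median log2 difference was -0.62 over the 9 members and 0.00363 over all genes. The fold change of all genes had a rank correlation of 0.27 with exon GC content in the DMSO comparison. In a fit corrected for exon length and GC content, ITGA1 (-0.80, adjusted p = 0.0545 in limma-voom) and ITGAV (-0.19) no longer passed with DMSO, while ITGA5 (-0.58) and ITGB8 (0.36) did.

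FGFR1 cells had less of ITGB5 and ITGB6, β chains that pair with ITGAV. With DMSO, 2 of 10 members fell and none rose, against 1.86% of all tested genes. ITGB5, a vitronectin receptor chain, was at 59.0, 89.3 and 91.0 CPM against 114, 118 and 125 CPM in HcRed (-0.62 ± 0.14, limma-voom adjusted p = 0.00537). ITGB6 was at 31.3, 36.0 and 43.2 CPM against 50.4, 56.8 and 66.9 CPM (-0.69 ± 0.19, limma-voom adjusted p = 0.0313). Neither pair of groups overlapped, yet both calls were lost without FGFR1 replicate 1 (0 members called), and that of ITGB6 also without FGFR1 replicate 3 or HcRed replicate 1 or 3 (1 called). Over all treatments (11 against 12 samples) 6 members fell, with 13.5% of all genes called (7.25% higher and 6.23% lower). ITGB6 (-0.75 ± 0.11) and ITGB5 (-0.65 ± 0.08) led, followed by ITGA3 (-0.33), ITGA2 (-0.29), ITGA5 (-0.26) and ITGB1 (-0.17). The call of ITGA5 was lost without the samples numbered replicate 1 or 3. ITGAV itself differed by -0.01 (limma-voom adjusted p = 0.955) and ITGB8 by -0.03 (adjusted p = 0.799). The median was -0.21 over the 10 members and 0.00290 over all genes.

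NRG1 cells, which overexpress a ligand of the ERBB receptors, had less ITGB8 and more ITGA3. With DMSO 1 member rose and 1 fell, against 2.04% of all tested genes. ITGB8 was at 94.0, 112 and 123 CPM against 183, 207 and 208 CPM in HcRed. The groups were well apart, and ITGB8 had a fold of 0.561 (log2 -0.83 ± 0.12, limma-voom adjusted p = 3.96e-09). ITGA3 was at 600.3, 658 and 678 CPM against 449, 509.8 and 515 CPM, also apart (0.39 ± 0.07, limma-voom adjusted p = 1.26e-05). Over all treatments ITGA1 (0.42), ITGA2 (0.38), ITGA3 (0.35) and ITGA5 (0.24) rose, and ITGB8 (-0.96 ± 0.07, limma-voom adjusted p = 2.84e-17) and ITGAV (-0.19) fell. That is 6 of 10 members called, against 10.8% of all genes (5.86% higher and 4.91% lower), but without the samples numbered replicate 2 the count was 3, with ITGA1, ITGA5 and ITGAV lost. The call of ITGA1 was lost without the samples of any 1 replicate number, that of ITGA5 also without replicate 3, without libraries under 500000 reads and with every gene that had a read, and that of ITGAV also without replicate 1. The median was 0.19 over the members and 0.00443 over all genes, and ITGB1 differed by -0.01 (limma-voom adjusted p = 0.938).

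PIK3CA cells, with more of the PI3K catalytic subunit, differed from HcRed in the subunits that activate TGF-β. With DMSO, ITGB6 was at 33.9, 36.8 and 37.6 CPM against 50.4, 56.8 and 66.9 CPM (-0.72 ± 0.18, limma-voom adjusted p = 0.00392). ITGB8 was at 144, 152 and 153 CPM against 183, 207 and 208 CPM (-0.42 ± 0.10, limma-voom adjusted p = 0.00306). Both were below every control sample. These were the only 2 of 10 members called, with DMSO (8.60% of all genes called) and over all treatments (27.8% called, 14.0% higher and 13.8% lower), where ITGB6 fell by 0.44 and ITGB8 by 0.36 on the log2 scale. The members' share called was thus below that of all genes over all treatments. Among the rest, ITGA3, ITGA5, ITGAV and ITGB1 differed by -0.03 to 0.06 over all treatments. The members' median was -0.02 and that of all genes -0.0115. The 4 overexpression lines share the HcRed samples, so their differences are given side by side and were not counted as independent.

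The knockout lines were each compared with GFP cells, and FAT1 knockout cells had more ITGA1. FAT1 encodes a large protocadherin. With DMSO, ITGA1 was at 40.4, 46.1 and 56.8 CPM in the FAT1 samples and at 10.6, 12.4 and 20.2 CPM in the GFP samples. No sample of the GFP line came near the FAT1 line, and ITGA1 had a fold of 3.27 (log2 1.71 ± 0.26, limma-voom adjusted p = 1.91e-06). Over all treatments the 12 FAT1 samples spanned 21.6 to 56.8 CPM (median 39.9) and the 12 GFP samples 10.2 to 20.2 CPM (median 14.3), still without overlap (1.36 ± 0.15). ITGAV moved in the opposite direction. It was at 166, 172 and 189 CPM against 283, 303 and 308 CPM with DMSO, clear of the controls (-0.79 ± 0.09, limma-voom adjusted p = 6.70e-09), and fell by 0.83 on the log2 scale over all treatments.

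The β chains of FAT1 knockout cells went both ways. ITGB6 was at 17.5, 29.3 and 33.8 CPM against 38.7, 44.2 and 46.1 CPM with DMSO (-0.80 ± 0.22, limma-voom adjusted p = 0.00513) and ITGB1 at 576, 609 and 612 against 716, 778 and 789 CPM (-0.36 ± 0.06, adjusted p = 1.28e-05). ITGB8 rose, from 147, 159 and 160.5 CPM in GFP to 186, 192 and 229 CPM in FAT1 (0.35 ± 0.10, limma-voom adjusted p = 0.00791). None of these 3 genes overlapped between the FAT1 and GFP samples, and the share of all genes without overlap was not counted. HcRed, the other control, had 183, 207 and 208 CPM of ITGB8 with DMSO. In all, 5 of 9 tested members were called with DMSO, against 26.3% of all genes, and 3 without FAT1 replicate 1, where ITGB6 and ITGB8 lost their calls. Over all treatments all 9 tested members were called, against 48.9% of all genes (25.0% higher and 23.9% lower). ITGA1, ITGB8 (0.54), ITGA5 (0.28) and ITGA2 (0.19) were higher, and ITGAV, ITGB6 (-0.59), ITGB5 (-0.36), ITGB1 (-0.32) and ITGA3 (-0.26) lower. The median was -0.26 over the members and 0.0279 over all genes. The call of ITGA5 was lost without the samples numbered replicate 1, and that of ITGA2 without those numbered 2 or 3. The GC correction left all 9 calls and directions, with ITGB1 reduced to -0.14.

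CDKN2A knockout cells, in which the gene of a cell cycle inhibitor was targeted, had more members called with DMSO than any other line. Of the 10, 6 rose and 3 fell, against 37.2% of all genes called. Every α chain except ITGAV was higher. ITGA3 was at 1001, 1062 and 1063 CPM against 514, 524 and 624 CPM, with no overlap (0.90 ± 0.05, limma-voom adjusted p = 5.38e-24). ITGA5 was at 89.3, 106 and 112 CPM against 38.7, 48.1 and 51.9 CPM, a fold of 2.16 (1.11 ± 0.15, limma-voom adjusted p = 7.45e-09). Over all treatments ITGA5 stayed apart, at 89.3 to 186 CPM (median 129) in CDKN2A and 38.7 to 83.5 CPM (median 60.3) in GFP (1.07 ± 0.08). The collagen receptor chains ITGA1 (27.1, 28.7 and 30.8 against 10.6, 12.4 and 20.2 CPM) and ITGA2 (209, 271 and 274 against 149, 157 and 186 CPM) also rose with DMSO, by 1.02 and 0.60.

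The β chains of the CDKN2A line were divided. ITGB1 (581, 584 and 599.8 against 716, 778 and 789 CPM) fell by 0.39 on the log2 scale with DMSO, ITGB8 (97.4, 115 and 117 against 147, 159 and 160.5 CPM) by 0.53, and ITGAV, their partner, by 0.50. ITGB5 rose by 0.40, although its groups overlapped, and did not pass after the GC correction (0.25, limma-voom adjusted p = 0.0685). ITGB3, with the fewest reads, had 18 in the 3 CDKN2A samples and 1 in the 3 GFP samples with DMSO, a depth-adjusted ratio of 18.8 (exact 95% counting interval 2.96 to 781, counting error only). Over all treatments it had 40 reads against 5, and 1 of 12 CDKN2A samples against 8 of 12 GFP samples had none (ratio 7.56, 2.99 to 24.6). ITGB3 passed the test with DMSO (limma-voom adjusted p = 0.00727), but not without CDKN2A replicate 2 (0.0503) or GFP replicate 3 (0.0623). Over all treatments all 10 members were called, against 57.6% of all genes (29.4% higher and 28.3% lower). ITGB6 joined the lower members there (-0.35 ± 0.12, limma-voom adjusted p = 0.0119, and 0.159 without the samples numbered replicate 2). The median was 0.42 over the members and 0.00140 over all genes. FAT1 and CDKN2A cells share the GFP samples.

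The control lines themselves differed, which limits any comparison of a knockout with an overexpression line. In GFP cells relative to HcRed cells over all treatments, 7 of 9 tested members were called, against 45.0% of all genes (22.2% higher and 22.8% lower). ITGA1 spanned 10.2 to 20.2 CPM (median 14.3) in GFP and 16.5 to 37.4 CPM (median 26.2) in HcRed (-0.94 ± 0.15, limma-voom adjusted p = 1.56e-07). ITGA5 (-0.71), ITGB8 (-0.42), ITGB6 (-0.38) and ITGB1 (-0.10) were also lower in GFP, and ITGA2 (0.31) and ITGA3 (0.21) higher. The call of ITGB1 was lost without the samples numbered replicate 2 or 3. The method of making a line and the batch of cells cannot be told apart here. The rise of ITGA1 in FAT1 and CDKN2A cells is therefore relative to a control in which ITGA1 was low: with DMSO its mean was 14.4 ± 5.07 CPM in GFP, 34.0 ± 4.25 in HcRed, 47.8 ± 8.33 in FAT1 and 28.9 ± 1.88 in CDKN2A (± SD, n = 3). For ITGA5 the corresponding means were 46.2 ± 6.79, 69.9 ± 5.83, 51.6 ± 6.16 and 103 ± 11.7 CPM. For ITGB8 they were 156 ± 7.55, 199 ± 14.4, 202 ± 23.5 and 110 ± 10.9 CPM. The ITGB8 mean of FAT1 cells thus lay above that of GFP but near that of HcRed. The median log2 difference was -0.10 over the 9 members and 0.00861 over all genes.

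**Figure D3:**
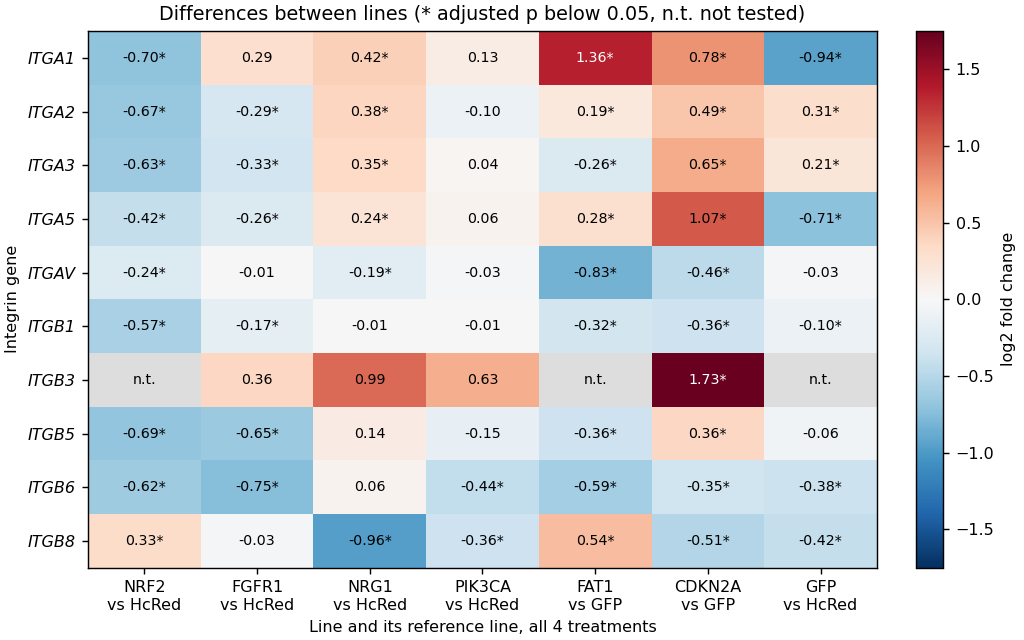
Heat map of the log2 difference of each member between each line and its reference line over all treatments (the last column sets the GFP line against the HcRed line), with the value in each cell, an asterisk where the limma-voom adjusted p was under 0.05 and grey where a gene was not tested. ITGB3 in CDKN2A (1.73), ITGA1 in FAT1 (1.36) and ITGA5 in CDKN2A (1.07) are the highest values, and NRF2 is the line with the most falls.

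The chemical comparisons set exposed cells beside cells with DMSO, and a trend over all genes has to be given with them. In each of the 3, the log2 difference from DMSO rose with the GC content of the gene (Spearman ρ over all genes 0.69 for CSC, 0.72 for BaP and 0.76 for NNK). Genes are not independent replicates, so no p is given. The fifth of genes with the lowest GC content had a median of -0.27, -0.23 and -0.25 with the 3 chemicals, and the fifth with the highest 0.43, 0.42 and 0.43. The line comparisons had ρ from -0.20 to 0.27. A fit that removed the dependence on GC content and exon length from each library brought ρ for the chemicals to between -0.00351 and 0.0518 and the share of genes called to 34.1% (CSC), 25.3% (BaP) and 17.6% (NNK). Corrected values compare a gene with others of like GC content. The cause of the trend was not tested, and the lower depth of the exposed libraries moved with it. The 3 chemicals share the 24 DMSO samples.

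ITGB8, the GC-poor chain of the TGF-β activating αvβ8, fell the most. Its level was 94.0 to 247 CPM (median 163) in the 24 DMSO libraries, 35.2 to 152 CPM (median 89.7) in the 23 CSC libraries, 41.0 to 152 CPM (median 97.2) with BaP and 66.1 to 214 CPM (median 132) with NNK. The ranges over all lines overlapped. Within lines, ITGB8 was lower with each chemical in 8 of 8 lines, and the samples did not overlap in 8 (CSC), 8 (BaP) and 7 (NNK) of them. The share of all genes whose samples separate in this way was not counted. The fitted log2 differences were -0.94 ± 0.05 (CSC, limma-voom adjusted p = 1.67e-32), -0.82 ± 0.05 (BaP) and -0.42 ± 0.04 (NNK). Corrected for GC, they were -0.70, -0.59 and -0.23, all 3 still called and negative in 8 of 8 lines. The corrected NNK value in FGFR1 cells was smaller than its SE (-0.05 ± 0.11). In HcRed cells, for example, ITGB8 was at 183, 207 and 208 CPM with DMSO, 95.3, 98.5 and 103 with CSC, 99.0, 116 and 119.5 with BaP and 143, 144 and 151 with NNK.

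ITGA5, the GC-rich fibronectin receptor chain, was the mirror image. It spanned 38.7 to 112 CPM (median 67.5) with DMSO, 75.3 to 186 CPM (median 118) with CSC, 55.7 to 158 CPM (median 87.9) with BaP and 49.6 to 141 CPM (median 85.5) with NNK. ITGA5 rose by 0.73 ± 0.05 with CSC (limma-voom adjusted p = 1.02e-22), 0.47 ± 0.05 with BaP and 0.41 ± 0.05 with NNK, and was higher in 8 of 8 lines each time. The GC correction reduced these to 0.47, 0.20 and 0.14, still called, with 8, 8 and 6 of 8 lines positive. Of the positive values, BaP in FGFR1 (0.05 ± 0.16) and GFP (0.09 ± 0.18) and NNK in CDKN2A (0.09 ± 0.12) were smaller than their SE. In HcRed cells it was at 66.2, 66.9 and 76.6 CPM with DMSO and 129, 130.0 and 141 CPM with CSC.

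Among the other α chains, ITGA3 also rose and ITGAV fell. ITGA3, the GC-richest member, rose by 0.55 with CSC, 0.28 with BaP and 0.40 with NNK, which became 0.24, -0.04 and 0.08 after the correction. The BaP value thus changed sign and was no longer called (limma-voom adjusted p = 0.285). ITGAV, the GC-poorest, fell by 0.38, 0.46 and 0.23 with CSC, BaP and NNK, and the corrected values were -0.10, -0.20 and 0.0028, the last not called. The rises of ITGA3 and the falls of ITGAV are hence mostly of the size that genes of their GC content shared.

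Of the collagen receptor chains, ITGA2 rose with CSC and fell with BaP and NNK, and ITGA1 fell with CSC and BaP. ITGA2 spanned 64.9 to 274 CPM (median 129) with DMSO, 58.3 to 237 CPM (median 163) with CSC and 51.6 to 189 CPM (median 109.6) with BaP. The rise with CSC (0.21 ± 0.05, limma-voom adjusted p = 1.74e-04) was larger after the correction, 0.43, and then positive in 8 of 8 lines. With BaP it fell by 0.37 (corrected -0.16, called in both fits), and with NNK by 0.24 (corrected -0.05, not called). The chemicals were not tested against each other, and their concentrations differ. ITGA1 differed by -0.37 with CSC and -0.53 with BaP. Of these only the BaP value was called after the correction (-0.28, against -0.10 for CSC), and with NNK ITGA1 differed by -0.10 (limma-voom adjusted p = 0.326).

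The shared β chain ITGB1 fell a little with every chemical. It spanned 518 to 832 CPM (median 736) with DMSO, 442 to 741 CPM (median 598) with CSC, 336 to 704 CPM (median 505) with BaP and 414 to 731 CPM (median 568) with NNK. Its log2 differences were -0.27 ± 0.02, -0.44 ± 0.03 and -0.28 ± 0.03, and in all 8 lines its samples with each chemical lay below those with DMSO without overlap. The share of all genes that separate so was not counted, and these CPM are not corrected for GC content. Corrected, the log2 differences of ITGB1 were -0.10, -0.25 and -0.14, all called and negative in 8 of 8 lines. Some of the corrected values within lines were smaller than their SE. These were CSC in PIK3CA (-0.02 ± 0.05) and NRF2 (-0.05 ± 0.07) and NNK in CDKN2A (-0.03 ± 0.06) and FAT1 (-0.05 ± 0.07). ITGB5 rose with CSC (0.34, corrected 0.14) and NNK (0.35, corrected 0.14). Its rise with BaP (0.11, limma-voom adjusted p = 0.0474) lay at the threshold and was kept in only 3 of 13 alternative fits. Among others, it was lost with edgeR and DESeq2, without replicate 1 or 3 and without libraries under 500000 reads, and it turned to -0.09 after the correction. ITGB6 fell with BaP (-0.46, corrected -0.30, called in both) and NNK (-0.34, corrected -0.15, not called), and differed by -0.13 with CSC (adjusted p = 0.148). ITGB3 was not called with any chemical.

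By count, 4 of 10 members rose and 4 fell with CSC, 3 rose and 6 fell with BaP, and 3 rose and 5 fell with NNK. The 3 rises with BaP include ITGB5, whose call was lost in most alternative fits. The background was 55.6% (27.2% higher, 28.4% lower), 51.4% (26.4% and 25.1%) and 51.7% (25.9% and 25.8%). With more than 50% of all genes called, a call by itself sets no member apart. After the correction 4 higher and 3 lower were called with CSC, 1 higher and 6 lower with BaP and 3 higher and 2 lower with NNK. The uncorrected medians over the members were -0.08, -0.40 and -0.23, beside -0.00812, 0.0113 and 0.000366 over all genes.

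**Figure D4:**
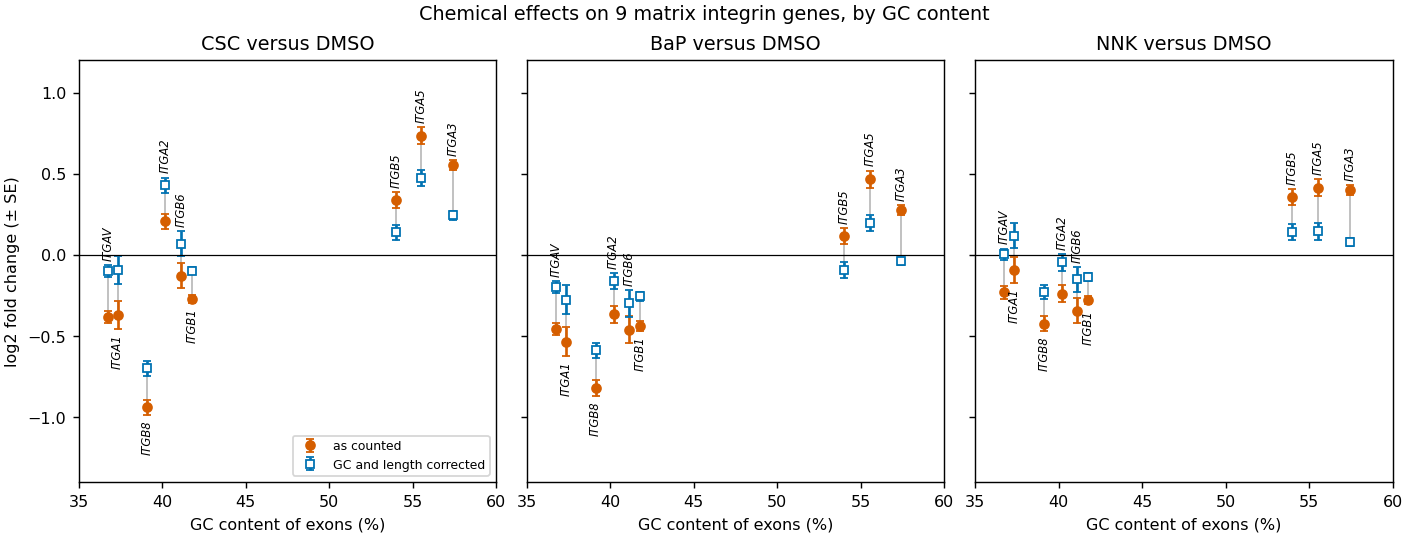
Log2 difference of 9 members (all but ITGB3) between chemical and DMSO (vertical axis) against the GC content of their exons (percent, horizontal axis), in 1 panel per chemical, with filled points for the value as counted, open squares for the value after correction for GC content and length, and bars for the SE. Before correction the GC-rich ITGA3, ITGA5 and ITGB5 lie above 0 and the GC-poor ITGAV and ITGB8 below. ITGB8 stays the lowest in each panel after the correction, at -0.70 with CSC.

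Whether a line changed the response to a chemical was tested with the interaction of line and chemical over all 8 lines. ITGA3 with CSC was the only member called (limma-voom F test, adjusted p = 5.36e-06), against 0.952% of all genes, and 0 members were called for BaP and NNK, against 0.368% and 0.452%. At an unadjusted p under 0.05 there were 2 members for BaP and 2 for NNK, and edgeR and DESeq2 called 0 for both. The nearest was ITGA3 with NNK (limma-voom adjusted p = 0.0588). The rise of ITGA3 with CSC was 0.17 ± 0.06 in CDKN2A cells and between 0.46 and 0.79 in the other 7 lines. CDKN2A cells had 1001, 1062 and 1063 CPM of ITGA3 with DMSO and 1111, 1146 and 1263 CPM with CSC. GFP cells had 514, 524 and 624 CPM with DMSO and 923, 941 and 1003 CPM with CSC. With DMSO the CDKN2A line had the highest level of ITGA3, and its rise with CSC was the smallest. With BaP its rise was 0.32, within a range over the lines of 0.02 (NRF2) to 0.46 (NRG1). With NNK its rise was again the smallest, 0.24, against up to 0.61 (HcRed). Whether the starting level bears on the rise was not tested. After the GC correction the CSC value was -0.0700 in CDKN2A and positive in the other 7 lines, up to 0.39, and the interaction was still called (limma-voom adjusted p = 4.13e-03).

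**Figure D5:**
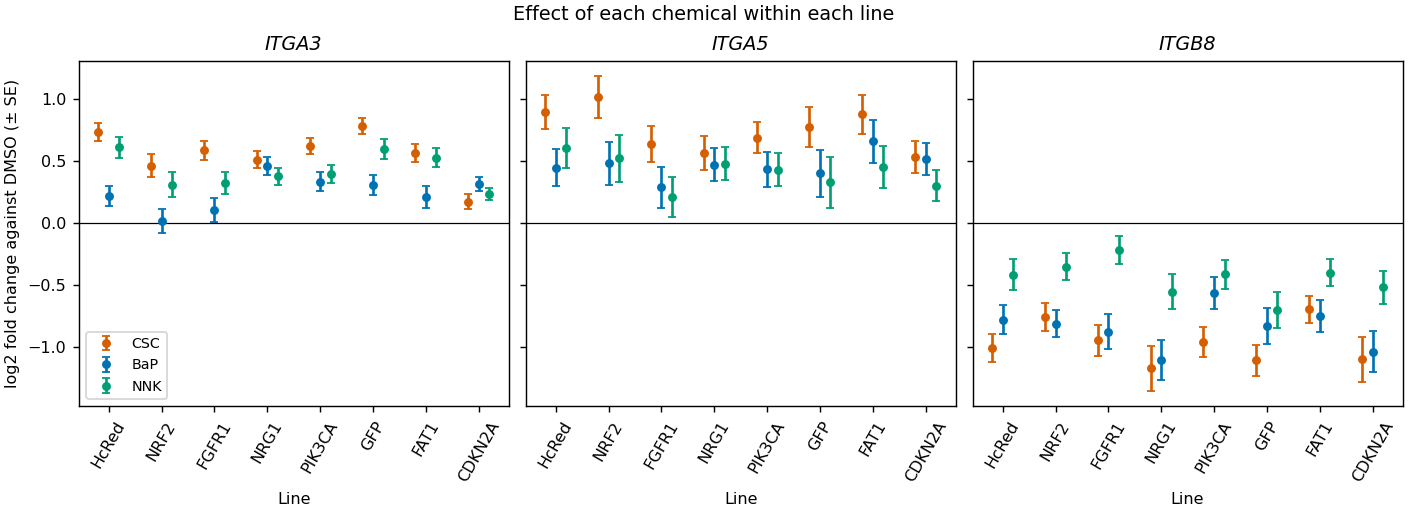
Log2 difference from DMSO of ITGA3, ITGA5 and ITGB8 (1 panel each) in each of the 8 lines, with CSC, BaP and NNK side by side and bars for the SE, from the fit with a mean per group. The points of ITGB8 lie below 0 and those of ITGA5 above 0 in all 8 lines with each chemical, and the CSC point of ITGA3 is lowest in CDKN2A (0.17).

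The rest of the matrix adhesion system was read from lists of genes known to bind or couple to these receptors. Values are log2 differences, each followed by the value after the GC correction, and the words rose and fell refer to the uncorrected test. The counts of each list stand beside 55.6% (CSC), 51.4% (BaP) and 51.7% (NNK) of all genes called, or 34.1%, 25.3% and 17.6% after the correction, and the lists were not tested as sets. Of the other integrin subunits 16 were listed, many of them leukocyte chains. Of 9 tested, 1 higher and 1 lower were called with CSC, 1 higher and 1 lower with BaP and 4 higher and 1 lower with NNK. The medians were 0.37, 0.12 and 0.42. Corrected, the calls were 0 higher and 1 lower, 0 higher and 2 lower and 0 higher and 1 lower. ITGB4 and ITGA6 form the receptor that anchors basal cells to laminin in hemidesmosomes. ITGB4 rose with CSC (0.37, corrected -0.15), BaP (0.20, corrected -0.31) and NNK (0.48, corrected -0.04), and its sign turned in all 3 after the correction, with the CSC and BaP values then called lower. ITGA6 fell with CSC (-0.20, corrected -0.02), BaP (-0.48, corrected -0.32) and NNK (-0.31, corrected -0.15), and the CSC value was no longer called after the correction.

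The matrix ligands were mixed. Of 19 tested, 8 higher and 7 lower were called with CSC, 6 higher and 9 lower with BaP and 11 higher and 2 lower with NNK. The medians were 0.04, -0.24 and 0.14. Corrected, the calls were 5 higher and 4 lower, 3 higher and 9 lower and 8 higher and 1 lower. COL1A1, a fibrillar collagen chain bound by α1β1 and α2β1, rose with CSC (0.91, corrected 0.54) and BaP (0.82, corrected 0.44). The matricellular protein CTGF rose with NNK (1.37, corrected 1.29) and BaP (0.59, corrected 0.48), and CYR61 with CSC (0.57, corrected 0.56). FN1, the ligand of α5β1, fell with BaP (-0.49, corrected -0.38), and COL4A1 of the basement membrane fell with CSC (-0.28, corrected -0.29) and BaP (-0.43, corrected -0.39). NPNT, a ligand of α8β1, fell with CSC (-0.47, corrected -0.31). With NNK, LAMA5 (0.79, corrected 0.17) rose while LAMA3 (-0.08, corrected -0.11) and LAMB1 (-0.08, corrected 0.02) fell. COL1A1 is also the main detected gene of the fibroblast marker list given above. After the correction LAMB1 was no longer called.

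Inside the cell, the adhesion adaptors and kinases also went both ways. Of 28 tested, 12 higher and 8 lower were called with CSC, 12 higher and 8 lower with BaP and 14 higher and 7 lower with NNK. The medians were 0.02, 0.09 and 0.21. Corrected, the calls were 4 higher and 7 lower, 3 higher and 8 lower and 4 higher and 1 lower. TNS4, a tensin that binds β tails, rose with CSC (0.66, corrected 0.35) and NNK (0.61, corrected 0.29), and the scaffold BCAR1 with CSC (0.58, corrected 0.07), BaP (0.57, corrected 0.07) and NNK (0.49, corrected -0.02). The focal adhesion protein ZYX rose with BaP (0.40, corrected -0.11). The small GTPases that activate integrins fell, RAP1A with CSC (-0.42, corrected -0.17) and NNK (-0.28, corrected -0.05) and RAP1B with BaP (-0.30, corrected -0.05) and NNK (-0.33, corrected -0.12). LIMS1, a partner of integrin-linked kinase, fell with CSC (-0.41, corrected -0.24), and ITGB1BP1, which binds the ITGB1 tail, fell with BaP (-0.30, corrected -0.18). BCAR1 with all 3 chemicals, ZYX, RAP1B and RAP1A with NNK were not called after the correction.

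Among the genes of latent TGF-β and its targets, higher calls outnumbered lower ones with each chemical, but with BaP no longer after the correction. Of 11 tested, 6 higher and 1 lower were called with CSC, 5 higher and 2 lower with BaP and 7 higher and 1 lower with NNK. The medians were 0.56, 0.25 and 0.29. Corrected, the calls were 5 higher and 2 lower, 2 higher and 3 lower and 2 higher and 0 lower. LTBP3, which tethers latent TGF-β to the matrix, rose with CSC (1.18, corrected 0.75), BaP (1.01, corrected 0.60) and NNK (0.87, corrected 0.42), and LTBP4 with BaP (0.65, corrected 0.14) and NNK (0.76, corrected 0.24). LTBP1 fell with BaP (-0.45, corrected -0.54), and SKIL, a repressor of SMAD signalling that TGF-β also induces, fell with CSC (-0.43, corrected -0.14), BaP (-0.45, corrected -0.21) and NNK (-0.32, corrected -0.06). LTBP4, and SKIL with NNK, were not called after the correction.

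Of the membrane partners, proteins that sit beside integrins in the membrane, all 8 were tested. Of 8 tested, 6 higher and 2 lower were called with CSC, 4 higher and 3 lower with BaP and 3 higher and 2 lower with NNK. The medians were 0.33, 0.16 and 0.10. Corrected, the calls were 3 higher and 2 lower, 1 higher and 3 lower and 1 higher and 4 lower. The tetraspanin CD81 rose with CSC (0.86, corrected 0.34), BaP (0.45, corrected -0.06) and NNK (0.48, corrected -0.05), and the urokinase receptor PLAUR with CSC (0.73, corrected 0.60). SLC3A2, the CD98 heavy chain that binds β tails, rose with BaP (0.54, corrected 0.39) and NNK (0.47, corrected 0.30). CAV1, the caveolar coat protein, fell with CSC (-0.60, corrected -0.59), BaP (-0.65, corrected -0.64) and NNK (-0.29, corrected -0.26), nearly as far after the correction. The thrombospondin receptor CD47 fell with CSC (-0.25, corrected -0.00259), BaP (-0.32, corrected -0.11) and NNK (-0.41, corrected -0.19). CD81 with BaP and NNK and CD47 with CSC and BaP were not called after the correction.

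In the line comparisons the matrix ligands, the genes of latent TGF-β and the adaptors are given by counts over all treatments. The share of all genes called is given for each line. The other integrin subunits and the membrane partners are left out here. Of 19 matrix ligands tested, 1 higher and 12 lower were called in NRF2 cells, where most matrix integrins fell as well (median -0.40, 21.6% of all genes called). The counts were 10 higher and 1 lower in NRG1 (10.8%), 4 higher and 5 lower in FGFR1 (13.5%), 10 higher and 6 lower in PIK3CA (27.8%), 8 higher and 5 lower in FAT1 (48.9%) and 11 higher and 5 lower in CDKN2A (57.6%). In GFP relative to HcRed, 5 matrix ligands were called higher and 8 lower (45.0%). Of 11 genes of latent TGF-β and its targets, 9 higher and 0 lower were called in CDKN2A (median 0.69), 5 higher and 1 lower in FAT1 and 1 higher and 3 lower in NRF2. This list had 3 higher and 0 lower in FGFR1, 4 higher and 1 lower in NRG1 and 3 higher and 2 lower in PIK3CA. Between the control lines the same list had 1 higher and 7 lower in GFP (median -0.60, 45.0% of all genes), so the knockouts were set against a control in which this list was low. Of 28 adhesion adaptors and kinases, 9 higher and 13 lower were called in CDKN2A, 12 higher and 3 lower in PIK3CA and 8 higher and 1 lower in NRG1. There were 4 higher and 8 lower in NRF2, 3 higher and 5 lower in FGFR1 and 9 higher and 9 lower in FAT1. In GFP relative to HcRed, 8 were higher and 11 lower.

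Across the 32 conditions some subunits tracked each other. These are Pearson correlations of mean log2 CPM over 32 conditions, given as a description, and the conditions share their lines, depth and the GC trend. The highest among members was ITGA3 with ITGB5 (r = 0.898), followed among those of ITGAV by ITGAV with ITGB1 (0.762). The lowest was ITGA3 with ITGB8 (-0.802). Partners in a receptor did not always track: ITGA3 with ITGB1 had r = -0.0451, ITGA5 with ITGB1 -0.0876 and ITGAV with ITGB5 -0.0415. Likeness was ranked over the 8269 genes whose mean count reached 20. Near the top for ITGA3 were ITGB5 (0.898) and KIRREL1 (0.892), and for ITGB5 ITGA3 (0.898) and DHCR7 (0.818). ITGA5 was most like CCDC85B (0.940), EREG (0.934) and FSCN1 (0.917), and ITGAV most like SPATS2L (0.909), MCM6 (0.905) and ZMYND11 (0.901). For the collagen receptor chains they were SLC26A2 (0.884), P4HA1 (0.837) and EFEMP1 (0.785) for ITGA1 and PRNP (0.876), CSNK2A1 (0.857) and CD55 (0.857) for ITGA2. For the other β chains they were FAR1 (0.849), CHML (0.830) and AGPS (0.826) for ITGB1, ITGA6 (0.853), BZW1 (0.793) and CCT5 (0.761) for ITGB6 and FZD6 (0.874), MCC (0.843) and ZFYVE16 (0.822) for ITGB8. ITGB3 had too few reads to be compared.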

How the data were processed

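Total RNA of AALE cells was measured by SFL in 95 libraries. Per the paper's methods and the submitters' processing notes, the authors trimmed reads with cutadapt 1.12, checked them with FastQC 0.11.5, aligned them to hg19 with STAR 2.5.2b and counted them per gene with featureCounts (Subread) in RefSeq genes. The deposited values are raw counts, 1 column per library, with no normalization. Strand use in counting is not given in the sources used here. No 2 libraries were identical. The counted reads ranged from 287446 to 2116383 per library. Low depth widens the error of ITGA1, ITGB6 and above all ITGB3. No library was left out of the main comparisons, and no column of the table was left unused.

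Groups came from the labels of genotypic perturbation and treatment. Only genes whose counts averaged above 1 over the samples of a fit were kept. They were normalized by TMM (edgeR 4.0.16) and tested with voom and empirical Bayes in limma 3.58.1 (R 4.3.3), 2-sided, with Benjamini-Hochberg adjustment over all tested genes and a threshold of 0.05. Each line was compared with its control with DMSO (3 against 3 samples) and over all treatments (treatment as covariate), and each chemical with DMSO over all lines (genotype as covariate). Interactions were tested with the F test of 7 terms. CPM in the text are counts divided by the TMM library size, and log2 CPM used a prior count of 2. Errors of log2 differences are standard errors. The GC correction removed a loess curve (span 0.3) of GC content and then of exon length from each library, from GENCODE exons on GRCh37. Gene symbols matched that annotation for 25095 of 27978 genes (89.7%). As alternatives, the comparisons were rerun with DESeq2 1.42.0, with the quasi-likelihood test of edgeR, with size factors from DESeq2, other filters, 1 fit of all libraries, the replicate number as a block, the GC correction, and leaving out replicates or shallow libraries. The scripts were tested on simulated data.

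The members and the lists were chosen with earlier results of these data known. All 10 members are named in every comparison. Whether samples overlap is described for named genes only, and the share of all genes without overlap was not counted. From each list, the text names in each chemical comparison at most the 2 largest rises and 2 largest falls past 0.05 among genes averaging 10 counts or more, and for each member averaging 20 counts or more the 3 genes of highest correlation over the 32 conditions. Of the genes these rules select, 2 are not reported here. Promoter sequences are from RefSeq (GRCh38.p14), with the first listed window of each gene, and no coordinates were carried between builds.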

Additional observations from a re-analysis of the deposited data

Results flagged for a closer look

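The rise of ITGA3 with CSC differed between lines. The test of the difference itself, the interaction of line and CSC over 8 lines, gave an adjusted p of 5.36e-06 (limma-voom F test across all tested genes) and 4.13e-03 after correction for exon length and GC content. The log2 difference was 0.17 in CDKN2A cells and 0.46 to 0.79 in the others, with the samples of CSC and DMSO apart in 8 of 8 lines. How many of all genes were apart in this way was not counted. Why the lines differed was not tested.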

How the results depend on the processing

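The 101 called values were recomputed under each alternative, and most kept their direction and side of the threshold: 100 with edgeR's quasi-likelihood test, 90 with DESeq2, 100 with DESeq2 size factors, 99 with every gene that had a read, 100 in 1 fit of all libraries, 92 after correction for exon length and GC content, all 99 testable ones with a mean count of at least 10, 73 of 75 without libraries under 500000 reads, and 347 of 381 when a replicate was left out. The values that reversed did so only with the GC correction, alone and with the replicate block: ITGA3 with BaP (-0.0395 and -0.0424), ITGB5 with BaP (-0.0921 and -0.0902) and ITGAV with NNK (0.0028 and 0.0043). The corrected fit removes by construction what genes of like GC content share. Counts of members called moved by more than 1.5 times in these cases. With DESeq2, 2 members were called for NRF2, 0 for FGFR1, 1 for PIK3CA and 3 for FAT1 with DMSO. With the GC correction 5 were called for NNK, and 5 with the replicate block added. For the interaction of line and NNK, 1 member (ITGA3) was called with DESeq2 size factors and 1 with a mean count of at least 10. Leaving out replicates gave 3 to 6 for NRF2 (3 without NRF2 replicate 3), 0 to 2 for FGFR1 (0 without FGFR1 replicate 1) and 3 to 7 for FAT1 (3 without FAT1 replicate 1) with DMSO, 3 to 4 for NRG1 over all treatments (3 without replicate 2), 1 to 2 for the CSC interaction and 0 to 1 for the NNK interaction (ITGA2 and ITGA3 added without replicate 2). The cause was not tested.

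The replicate numbers paired the samples weakly at most. Deviations of same-numbered samples had mean correlations of -0.000886 to 0.0359 over the comparisons, and single pairs -0.126 to 0.0965. The mean for other numbers was lower, except in FAT1 versus GFP with DMSO (0.000449). NRF2 versus HcRed with DMSO had the highest mean, with same-numbered pairs at 0.0233 to 0.0510 and a mean of -0.0179 for other numbers. With the replicate block all 101 called values kept their call and direction, and the count for FAT1 with DMSO went from 5 to 6. Depth limits ITGB3 most, followed by ITGA1 and ITGB6.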
